A study of Homo sapiens with 6 samples.

Results

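The cytoplasmic polyadenylation element-binding proteins (CPEBs) are RNA-binding proteins that sit on a U-rich element in the 3′ untranslated region of an mRNA and set how strongly that mRNA is translated. Bound CPEB can hold an mRNA silent with a short poly(A) tail, or, once modified by kinases, recruit a poly(A) polymerase that lengthens the tail. CPEB1 is the founding member, known from oocyte maturation, while CPEB2, CPEB3 and CPEB4 are more alike to each other than to it. CPEB4 is known in red cell development as a gene that GATA1 and TAL1 switch on in terminal differentiation, and as a repressor of translation that contacts the initiation factor eIF3.

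All 4 human CPEB genes were measured, each by 1 probe set, among 18417 genes on the arrays with a probe set of their own. The family was selected on measured values of these same arrays, from the comparison of the lines with and without PU.2, so the differences of CPEB1, CPEB2, CPEB3 and CPEB4 below are a description and carry no test. The samples were 6 monoclonal lines of K562, a human chronic myeloid leukemia cell line with erythroid and megakaryocytic potential. Of these, 3 were stably transfected by electroporation with the empty plasmid pEF1a (pEF1α clones) and 3 with pEF1a-Pu.2 (Pu.2 clones), which expresses mouse Pu.2 from the EF1α promoter. PU.2 is a truncated form of the hematopoietic factor PU.1 that keeps its ETS DNA-binding domain, and the study asked whether it acts against PU.1. Lines were selected with puromycin, each is 1 clone, and total RNA of each was measured on its own Affymetrix array (Human Gene 1.0 ST). An insect cell medium is given in the labels of these lines, whereas the methods describe RPMI medium for K562. Values are log2 probe set values, on which a difference of 1 is a doubling, and n counts lines.

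The arrays had similar medians, between 5.30 and 5.42. Of 7 measured erythroid markers, all had a mean at or above the median of all probe sets, against 2 of 7 monocyte and granulocyte markers, 0 of 5 megakaryocyte markers and 1 of 5 lymphocyte markers. Summed on the linear scale, the erythroid markers lay between 9242 and 12491 in the pEF1α clones and between 15847 and 16339 in the Pu.2 clones. These sums consist mostly of HBE1, TFRC and HBZ. Their log2 means were 12.59, 11.19 and 10.58 in the pEF1α clones and 13.00, 11.40 and 12.17 in the Pu.2 clones. The embryonic globin HBZ was the 1 erythroid marker past the test (log2 difference 1.59, adjusted p = 0.0111 from limma), and all 7 had a log2 difference above 0, with a median of 0.21. The monocyte and granulocyte sum lay between 280 and 387 and between 261 and 275. Lysozyme (LYZ) was the 1 gene of that list past the test, at a log2 difference of -2.64 (adjusted p = 0.00524 from limma), while 4 of the 7, FCN1, MPO, CSF1R and ITGAM, had differences of 0.13 to 0.22 and the list median was 0.13. The megakaryocyte sum lay between 127 and 158 and between 130 and 158. The lymphocyte sum lay between 154 and 207 and between 118 and 131, with CD3D at a log2 difference of -1.25 (adjusted p = 0.0896 from limma) and the other markers of that list between -0.13 and 0.05. The part of these marker values in the CPEB values was not tested, and in RNA of a whole line a change in some cells and a change in every cell cannot be told apart. Across genes, pEF1α clone 3 correlated with the other pEF1α clones at r = 0.973 and 0.981 and with the Pu.2 clones at r = 0.979 to 0.982.

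CPEB4 lies on chromosome 5 and is shown first because its values separated the groups. The 250 bases before its RefSeq start (chr5:173888099-173888348, plus strand, GRCh38.p14) are printed here with those of CPEB2 (chr4:15002231-15002480, plus strand), a close relative whose groups overlapped. Capitals mark CCGGAAGT, a site that many ETS factors can bind, which was searched on both strands together with GAGGAA, the PU.1 consensus that the study used in its binding assays.

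CPEB4: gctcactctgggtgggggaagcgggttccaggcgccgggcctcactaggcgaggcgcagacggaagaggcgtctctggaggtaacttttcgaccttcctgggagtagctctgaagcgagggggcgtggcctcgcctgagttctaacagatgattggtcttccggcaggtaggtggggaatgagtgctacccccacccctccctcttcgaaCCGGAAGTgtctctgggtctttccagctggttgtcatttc
CPEB2: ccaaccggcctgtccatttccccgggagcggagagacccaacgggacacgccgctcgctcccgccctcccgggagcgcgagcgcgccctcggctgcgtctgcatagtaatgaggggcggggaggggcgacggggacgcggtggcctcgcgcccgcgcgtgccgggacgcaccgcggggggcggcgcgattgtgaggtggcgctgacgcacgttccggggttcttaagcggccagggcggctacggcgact

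The RefSeq promoter table of GRCh38.p14 held 8 windows of 300 bases for the 4 genes, each with 250 bases before a start and 50 after. CCGGAAGT occurred once, 40 bases before the CPEB4 start, and in none of the other 7 windows, and 4.14% of all 35116 windows held it. GAGGAA occurred once in a CPEB1 window and once in a CPEB3 window, where 27.9% of all windows held it. AGATAA, a site of erythroid zinc finger factors, occurred in none of the 8 windows against 10.3% of all windows. The loose KLF consensus NCNCNCCCN, in which the motif can overlap itself, occurred 5 times in the CPEB4 window and 10 times in that of CPEB2. In the CPEB1 windows it occurred 5, 8, 6 and 0 times and in the CPEB3 windows 0 and 1 times, and 73.4% of all windows held it. These matches describe letters in the windows, and no binding was measured here.

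CPEB4 lay above the array median in all 6 lines and stood higher in every Pu.2 clone. Its log2 value was 8.28, 8.21 and 8.27 in pEF1α clones 1, 2 and 3. In Pu.2 clones 1, 2 and 3 it was 9.34, 9.12 and 9.15. The pEF1α clones thus lay within 0.07 of each other and the Pu.2 clones within 0.21, while 0.85 separated the highest pEF1α clone from the lowest Pu.2 clone. The group means were 8.25 ± 0.04 and 9.20 ± 0.12 (SD, n = 3 lines each), a log2 difference of 0.95 (standard error 0.12, 95% interval 0.69 to 1.22). On the linear scale this is a fold of 1.94, with an interval of 1.61 to 2.33. All 9 differences between a Pu.2 clone and a pEF1α clone were above 0, from 0.85 to 1.13. pEF1α clone 3 sat between the other pEF1α clones in CPEB4, and without it the difference was 0.96.

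CPEB1 did not separate the groups. The gene lies on chromosome 15. Its log2 value was 5.48, 5.50 and 6.18 in pEF1α clones 1, 2 and 3 and 6.01, 6.02 and 5.37 in Pu.2 clones 1, 2 and 3. Both ends of this order came from line 3 of a group, with the Pu.2 clone lowest and the pEF1α clone highest. The means were 5.72 ± 0.40 and 5.80 ± 0.37 (SD, n = 3 lines each), a log2 difference of 0.08 (standard error 0.24, 95% interval -0.47 to 0.63). That interval holds folds from 0.72 to 1.55, so neither a fall nor a rise of that size can be told from no change. Without pEF1α clone 3 the difference was 0.31, and without pEF1α clone 1 it was -0.04.

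CPEB2, described as a repressor of HIF1A translation, lies on chromosome 4. It had 5.49, 5.98 and 6.07 in pEF1α clones 1, 2 and 3 and 6.33, 5.74 and 6.15 in Pu.2 clones 1, 2 and 3. The groups overlapped, as Pu.2 clone 2 lay below pEF1α clones 2 and 3. The means were 5.85 ± 0.31 and 6.08 ± 0.30 (SD, n = 3 lines each), a log2 difference of 0.23 (standard error 0.20, 95% interval -0.24 to 0.70). Of the 9 differences between a Pu.2 clone and a pEF1α clone, 7 were above 0. Leaving out pEF1α clone 1 lowered the log2 difference to 0.05, and leaving out Pu.2 clone 2 raised it to 0.40.

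CPEB3, known from neurons and as a partner of the antiproliferative protein TOB1 in deadenylation, lay near the array medians. Only pEF1α clone 3 lay at or above the median of all probe sets of its array. The gene lies on chromosome 10. It had 5.18, 5.05 and 5.40 in pEF1α clones 1, 2 and 3 and 4.94, 5.06 and 4.996 in Pu.2 clones 1, 2 and 3. The groups touched, with Pu.2 clone 2 just 0.01 above pEF1α clone 2. The means were 5.21 ± 0.18 and 4.999 ± 0.06 (SD, n = 3 lines each), a log2 difference of -0.21 (standard error 0.13, 95% interval -0.51 to 0.08). Without pEF1α clone 3 it was -0.12.

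Over all 18417 genes, 27 passed limma at 0.05 after adjustment with higher values in the Pu.2 clones, which is 0.147%, and 41 were lower, which is 0.223%. Of the 4 CPEB genes, CPEB4 was among the former and 0 were among the latter. Every Pu.2 clone exceeded every pEF1α clone in 1 of the 4, against 7.02% of all genes, and below them in 0 of the 4, against 6.8%. Since the family was selected on this comparison, nothing is read from these counts. The same holds under the alternative settings, where the call of CPEB4 is no test of it either. CPEB4 left the genes past the test when any line other than pEF1α clone 3 was left out. It also left them with the replicate number as a block, or when every probe set was tested. Its log2 difference lay between 0.89 and 0.99 in every alternative, but several of these, such as the block, cannot change it by construction. The spreads within groups of CPEB4 and CPEB3, pooled SDs of 0.09 and 0.13, lay under the median of 0.18 over all genes. Those of CPEB1 and CPEB2, 0.38 and 0.31, lay over it.

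The nearest measured genes on either side of each CPEB gene, 10.5 to 271.7 kb away, were read from the same arrays, as was MARCHF5, which overlaps CPEB3. BOD1, which helps chromosomes attach to the spindle, lies 271.7 kb before CPEB4. It had 7.80, 7.89 and 7.79 in the pEF1α clones and 7.56, 7.03 and 7.36 in the Pu.2 clones. Its log2 difference was -0.51 (standard error 0.15, adjusted p = 0.29 from limma), opposite in sign to that of CPEB4. C5orf47, 27.2 kb after CPEB4, stayed below the array medians, with a log2 difference of -0.12 (adjusted p = 0.86 from limma). Around CPEB1, the pseudogene UBE2Q2P2 and the adaptor subunit gene AP3B2 had log2 differences of -0.02 and 0.04 (adjusted p = 0.98 and 0.96 from limma). LINC00504 and C1QTNF7, on either side of CPEB2, had -0.10 and -0.06 (adjusted p = 0.88 and 0.94). MARCHF5, a mitochondrial ubiquitin ligase, has a span that overlaps that of CPEB3 by only 67 bases. It had 7.25, 7.63 and 8.12 in the pEF1α clones and 7.64, 7.30 and 7.31 in the Pu.2 clones. In both genes pEF1α clone 3 was the highest line, and the log2 difference of MARCHF5 was -0.25 (adjusted p = 0.82 from limma). BTAF1 and IDE, the next genes on either side of CPEB3, had 0.16 and 0.07 (adjusted p = 0.85 and 0.94). None of these neighbors passed the test.

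**Figure D1:**
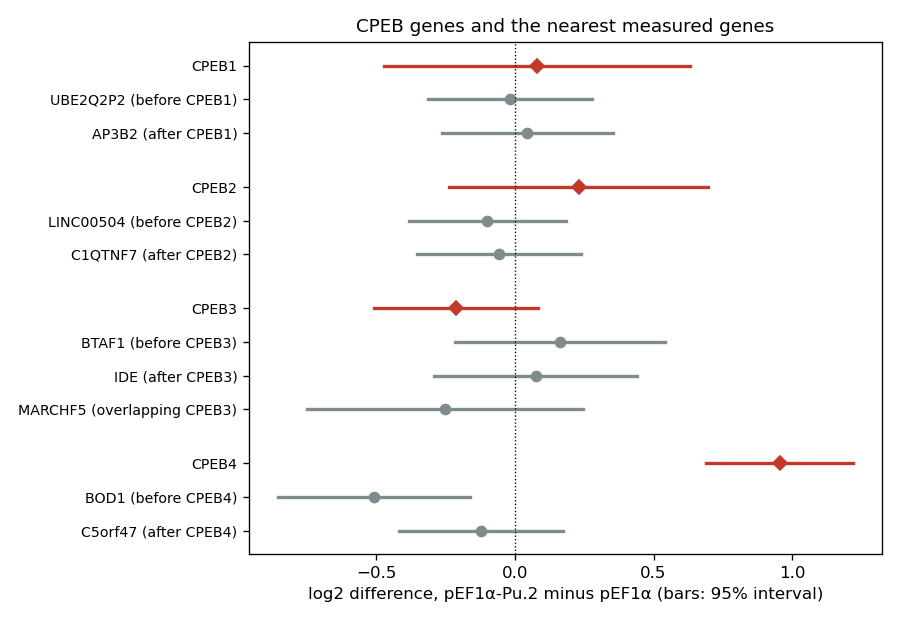
Log2 difference of Pu.2 minus pEF1α clones (horizontal axis) for the CPEB genes (red diamonds) and the nearest measured genes at each locus (gray circles), with 95% intervals from limma and n = 3 lines a group. CPEB4 lies at 0.95, and its neighbors BOD1 and C5orf47 lie at -0.51 and -0.12.

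Partners, regulators and described targets of the CPEB proteins made up 6 of 8 lists, and the other lists held erythroid transcription factors and other RNA-binding proteins. The 8 lists together had 110 measured genes. None passed limma over all genes. At an unadjusted p under 0.05, 2 of the 110 were higher and 8 lower, where over all genes 3.83% were higher and 5.7% lower. The median log2 difference of the 110 genes was 0.04, beside 0.02 over all genes, and 66 lay above 0, beside 54.1% of all genes.

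Among 14 genes of cytoplasmic polyadenylation, 6 had a log2 difference above 0 and the median was -0.09. This machinery holds the cleavage and polyadenylation factors CPSF1 to CPSF4, the scaffold symplekin, poly(A) polymerases such as TENT2 and the deadenylase PARN, which counteracts TENT2 in the CPEB1 complex. PARN had 9.73, 9.72 and 9.64 in the pEF1α clones and 9.38, 9.12 and 9.43 in the Pu.2 clones. Its groups did not overlap, with a log2 difference of -0.39 (standard error 0.13, adjusted p = 0.35 from limma). The noncanonical polymerase TENT4A had one of -0.43 (adjusted p = 0.33), also without overlap. FIP1L1, a CPSF subunit, had one of -0.30 and PABPC1L, an embryonic poly(A)-binding protein, one of -0.42 (adjusted p = 0.77 and 0.60), both with overlapping groups.

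Of 17 genes of translational masking, which keep CPEB-bound mRNA silent, 11 had a log2 difference above 0, with a median of 0.07. ZAR1, an oocyte RNA-binding protein, had 6.84, 6.95 and 6.75 in the pEF1α clones and 6.45, 6.28 and 5.88 in the Pu.2 clones, a log2 difference of -0.64 (standard error 0.16, adjusted p = 0.22 from limma). The germ cell Y-box protein YBX2 had one of 0.30, the P-body protein LSM14B one of 0.22 and PATL2, below the array medians in every line, one of 0.19 (adjusted p = 0.75, 0.71 and 0.74). Of 19 genes of deadenylation, which shortens poly(A) tails, 8 were above 0 and the median was -0.04. TOB1, which brings the CCR4-NOT deadenylase to CPEB3, had 8.56, 8.99 and 9.24 in the pEF1α clones and 8.52, 8.27 and 8.42 in the Pu.2 clones. Its groups did not overlap, and the log2 difference was -0.53 (adjusted p = 0.38 from limma). CNOT9, a CCR4-NOT subunit, had a log2 difference of 0.30, and its catalytic partner CNOT7 one of -0.28 (adjusted p = 0.46 and 0.59). BTG1, a relative of TOB1, had one of -0.32 (adjusted p = 0.75).

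Of 12 measured regulators of the CPEB proteins, 8 had a log2 difference above 0, with a median of 0.05. CAMK2D, a calcium-dependent kinase of a family that can phosphorylate CPEB1, had 4.47, 4.61 and 3.13 in pEF1α clones 1, 2 and 3 and 3.04 to 3.15 in the Pu.2 clones, below the array medians throughout. Its log2 difference was -0.99 (adjusted p = 0.38 from limma). pEF1α clone 3, at 3.13, lay at the level of the Pu.2 clones, so leaving this clone out widens the difference by construction. Without it the log2 difference was -1.46 (adjusted p = 0.00065 from limma). In that setting 432 genes passed, 273 of them lower, against 68 with all clones. CAMK2D was the only one from the 110 measured genes of the 8 lists. As the call depends on dropping that clone, nothing is read from it. CAPN2, a calpain that cleaves CPEB3, had 9.94, 10.08 and 9.74 in the pEF1α clones and 9.51, 9.57 and 9.33 in the Pu.2 clones. Its log2 difference was -0.45 (adjusted p = 0.29), without overlap. AURKA, the kinase that activates CPEB1 in oocytes, had one of 0.31 and the kinase MAPK3 one of 0.32 (adjusted p = 0.715 and 0.639 from limma).

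**Figure D2:**
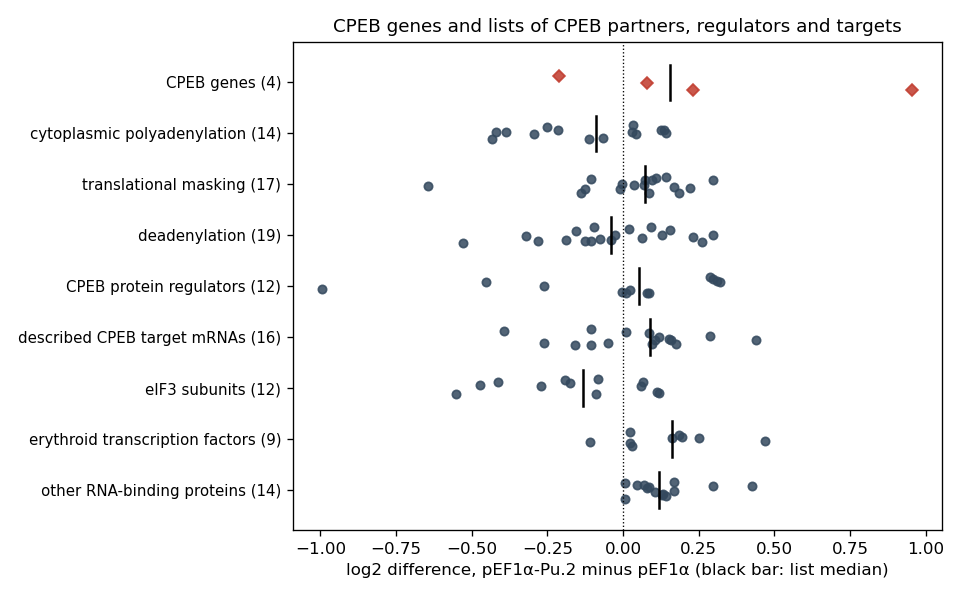
Log2 difference of Pu.2 minus pEF1α clones (horizontal axis) of each CPEB gene (red diamonds) and each measured gene of 8 lists (dark circles), with the number of genes in brackets and the list median as a black bar. CPEB4 lies at 0.95, and the list gene farthest from 0 is CAMK2D at -0.99.

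Array values give mRNA abundance, so they show nothing of how well a target of CPEB is translated. Among 16 measured mRNAs described as CPEB targets, 10 had a log2 difference above 0, with a median of 0.09, and 0 were past an unadjusted p of 0.05 in either direction. HIF1A, the hypoxia factor, had 7.33, 7.81 and 8.17 in the pEF1α clones and 8.16, 8.27 and 8.19 in the Pu.2 clones, a log2 difference of 0.44 (adjusted p = 0.55 from limma). VEGFA, a vascular growth factor, had one of -0.39 (adjusted p = 0.76), CAMK2A one of 0.29 (adjusted p = 0.59) and the plasminogen activator gene PLAT one of -0.26 (adjusted p = 0.65).

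Of the genes of eIF3, which CPEB4 contacts in erythroid cells, 12 were measured and 4 had a log2 difference above 0, with a median of -0.13. At an unadjusted p under 0.05, 2 of the 12 were lower, against 5.7% of all genes. The lists of cytoplasmic polyadenylation and of CPEB protein regulators also had 2 lower each. EIF3D, a subunit that contacts the mRNA cap, had 9.64, 10.03 and 10.03 in the pEF1α clones and 9.23, 9.56 and 9.25 in the Pu.2 clones. Its log2 difference was -0.55 (standard error 0.16, adjusted p = 0.27 from limma), without overlap. EIF3I, EIF3K and EIF3L had -0.47, -0.41 and -0.27 (adjusted p = 0.43, 0.55 and 0.57), of which EIF3L did not overlap. None of the 12 passed the test.

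Of 9 erythroid transcription factors, of which GATA1, TAL1 and KLF1 are also among the erythroid markers, 8 had a log2 difference above 0, with a median of 0.16. GATA1 had 7.89, 7.84 and 7.66 in the pEF1α clones and 7.90, 8.06 and 7.98 in the Pu.2 clones, so its groups were just apart. Its log2 difference was 0.18 (adjusted p = 0.73 from limma). TAL1 had 6.49, 6.90 and 6.98 and then 7.15, 7.23 and 6.74, a log2 difference of 0.25 (adjusted p = 0.78) with overlapping groups. LDB1, the adaptor that joins GATA1 and TAL1 complexes, had the largest difference of this list, 0.47 (standard error 0.17, adjusted p = 0.43), without overlap, and KLF1 had 0.19 (adjusted p = 0.75). All 14 measured genes of other RNA-binding proteins had a log2 difference above 0, beside 54.1% of all genes. These differences were small, from 0.01 to 0.43. Their median was 0.12, the same as the median absolute difference over all genes, and 0 passed an unadjusted p of 0.05. IGF2BP2 had the largest, 0.43, followed by LIN28A with 0.30 and RBM38 and IGF2BP3 with 0.17 each (adjusted p = 0.546, 0.715, 0.717 and 0.863 from limma). LIN28A lay below the array medians in every line.

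CPEB4 was the member whose values ranged over more than 1 log2 unit across the 6 lines, so the genes most like it were looked up by Pearson r among 1730 genes with such a range. The points share their arrays and mostly reflect the gap between the groups, so these values are a description. The 5 highest were IGSF10 (r = 0.996), IQSEC1 (0.995), MOB1B (0.994), TMEM243 (0.989) and CLGN (0.984). IQSEC1, which activates the small GTPase ARF6, came closest in size, with 6.95, 6.83 and 6.81 in the pEF1α clones and 7.94, 7.69 and 7.82 in the Pu.2 clones, a log2 difference of 0.96. MOB1B, a coactivator of LATS kinases in the Hippo pathway, had 9.04, 8.88 and 8.95 and then 10.04, 9.89 and 10.01, a log2 difference of 1.03. TMEM243, a small membrane protein, had 5.78, 5.66 and 5.88 and then 6.93, 6.84 and 6.65, also a difference of 1.03. In these genes, as in CPEB4, every Pu.2 clone exceeded every pEF1α clone. IGSF10 and the chaperone CLGN also separated the groups, at larger log2 differences of 3.61 and 1.79. Unlike CPEB4, both lay below the array medians in the pEF1α clones, with means of 4.37 and 4.15. In the Pu.2 clones their means were 7.98 and 5.94.

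**Figure D3:**
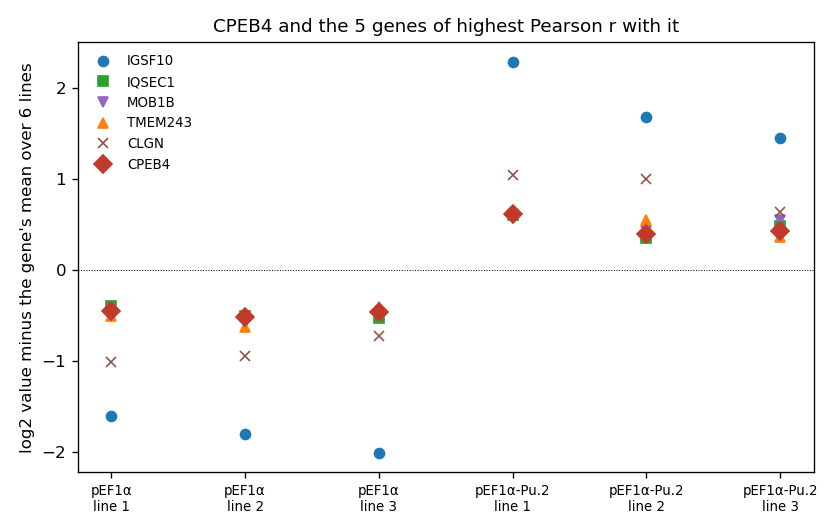
Log2 value minus the gene's own mean over the 6 lines (vertical axis) in each monoclonal K562 line (horizontal axis), for CPEB4 (red diamonds) and the 5 genes of highest Pearson r with it. IQSEC1, MOB1B and TMEM243 lie near the diamonds in every line, while CLGN and IGSF10 span larger differences of 1.79 and 3.61 between the group means.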

How the data were processed

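The deposited table holds 1 log2 value per probe set and array, which the authors made in Affymetrix Expression Console from 6 Affymetrix Human Gene 1.0 ST arrays, with replicates kept apart. How that software corrected background, normalized and summarized, and in which version, is not given in the sources used here. Groups were taken from the sample titles. Of 33297 probe sets, 19460 had 1 gene symbol, and gene IDs of 19429 of these were found in the GRCh38.p14 gene table, which gave names and neighbors. Probe sets with several symbols (1754) or unnamed here (12083) were left out, and 769 genes with several probe sets were represented by their brightest. Dim probe sets were kept.

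Group means of 18417 genes were compared by lmFit and eBayes (limma 3.58.1, R 4.3.3), with Benjamini-Hochberg adjustment over all of them and a threshold of 0.05. Standard errors and 95% intervals come from that fit. The number of arrays limits the precision. Replicates are separate clones, and p-values measure the spread between them. The steps were tested on simulated data, drawn for each gene without shared clone or array effects. This checks the code and not the results given here. The CPEB family and the lists were chosen with earlier results of these data known. Named from each list were the genes past the test and up to 4 with the largest differences, and beside the family the nearest measured genes and the 5 of highest Pearson r. Marker genes named with a list's sum were singled out after their values were seen. Promoter sequences are those of RefSeq on GRCh38.p14, and all 4 genes were matched by symbol.

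Alternative settings used a block for replicate number, omission of single clones, quantile normalization, median centring, removal of dim probe sets, eBayes with a trend and robust fit, averaging over probe sets of a gene and a test of every probe set.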

Additional observations from a re-analysis of the deposited data

How the results depend on the processing

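The log2 differences of CPEB1, CPEB2, CPEB3 and CPEB4 moved by less than the SD within groups under every alternative that was run. Most alternatives could not have given another outcome, so nothing is read from it. The block, the trend and robust fit, the dim filter and the settings on probe sets leave these differences unchanged by construction. Omission of 1 of 3 clones always shifts a difference by less than that SD. With 1 clone left out the log2 differences ranged from -0.04 to 0.31 for CPEB1, from 0.05 to 0.40 for CPEB2, from -0.29 to -0.12 for CPEB3 and from 0.89 to 0.99 for CPEB4. CPEB3 fell out of the filter on dim probe sets and has no value there. The genes past the test numbered 8 to 159 higher and 11 to 273 lower with 1 clone left out, the highest counts without pEF1α clone 3, and 17 were higher after median centring. With every probe set tested, 10 were higher and 16 lower. Among regulators of CPEB proteins, 0 to 1 were lower with 1 clone left out. The cause of these shifts was not tested. Deviations of same-numbered clones from their group means correlated at r = -0.15, -0.15 and -0.04 across genes. These values show no sign of a pairing by number, but with 3 clones a group they cannot settle it. With the replicate block 64 genes passed against 68 without it, and CPEB4 had a log2 difference of 0.95 with a standard error of 0.14. No gene of the 8 lists passed under any alternative other than the removal of pEF1α clone 3. With 3 clones a group, the smallest p of an exact permutation test that counts both directions is 0.1.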
